A study of Mus musculus with 4 samples.

Results

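The input DNA library of a ChIP-seq experiment in mouse embryonic stem cells had 6804 analysed peaks, and at 4962 of them none of the 3 ChIP libraries had a peak. These 4962 peaks, a share of 72.9% of the input peaks (95% Wilson interval 71.9% to 74.0%), are the members described here. They were chosen on measured values, namely the percent of each input peak's length that the Dzip3, Ring1B and ubH2A peaks cover, which had to be 0 for all 3. The 4 peak lists together hold 30047 peaks, and the other 1842 input peaks overlap at least 1 ChIP peak. All intervals given here cover counting error only.

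The cells were E14 mES cells, an established line of mouse embryonic stem cells of strain 129/Ola, at passage 3-5. They were kept without feeders on dishes coated with 0.5% gelatin, in N2B27 medium that contained 1 μM PD0325901 (against MEK), 3 μM CHIR99021 (against GSK), which together are called 2i, and 1000 U/ml LIF. All 4 libraries share this condition and fixation for 10 min in 1% formaldehyde, and they differ in the antibody alone. The groups are Dzip3 ChIP, Ring1B ChIP, ubH2A ChIP (ubiquitylated histone H2A) and input DNA, which saw no antibody, with 1 library each. There is therefore no replicate error, peaks of 1 library are not replicates, and no p-value is given. The antibodies were raised in rabbits by the laboratory itself, and none of the 4 libraries is an IgG control. Fragmentation is described as micrococcal nuclease digestion in the study's methods and as shearing with a Picoruptor in the sample labels. Library sizes were 48.3 M reads for input DNA, 53.3 M for Dzip3, 51.8 M for Ring1B and 67.0 M for ubH2A, from the listed heights and RPM (extended reads scaled to library size).

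Input DNA is the fragmented chromatin before any antibody is added, and it serves as the reference for how reads spread over the genome without a pull-down. Ring1B is the catalytic subunit of Polycomb repressive complex 1, which ubiquitylates histone H2A, and Dzip3 is a RING-type ubiquitin ligase that acts on the same histone. LINE-1 elements are retrotransposons that move by copying their RNA into DNA. A full element carries a pair of reading frames, the first for an RNA-binding protein and the second for a protein with endonuclease and reverse transcriptase activity, and copies that are cut short at their start are common in mouse chromosomes.

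The members fell into 3 kinds that do not overlap. The largest, with 2266 members, matched the sequence of a LINE-1 element and lay outside the 10 windows of 1 Mb that held the most members. Those 10 windows, on chromosomes 4, X, 14 and 13, held 1166 members. The remaining 1530 were of neither kind. The LINE-1 element and the split that uses it were chosen after the values were seen.

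The first sequences shown are from members that hold the 31-base word found in more members than any other. The word, in capitals, was present in 156 members (3.14%) and 15158 times in the mm9 genome on either strand. It was held by 19 of the other 1842 input peaks (1.03%) and by 2 of 4006 tiles of 237 bp (0.0499%). The tiles were placed every 500 kb along X and the autosomes with a complete input list, and those with unknown bases were dropped. Members also lie on chromosomes 1, 12 and Y and the mitochondrial chromosome, which have no tiles. The word was picked because the most members held it, which favours members in this comparison. It starts at base 3179, counted from the first base of the LINE-1 element's first reading frame as base 1, inside the second frame. The 3 tallest members with it are given 5′ to 3′ on the strand that carries the word.
chrX:85088107-85088306, plus strand: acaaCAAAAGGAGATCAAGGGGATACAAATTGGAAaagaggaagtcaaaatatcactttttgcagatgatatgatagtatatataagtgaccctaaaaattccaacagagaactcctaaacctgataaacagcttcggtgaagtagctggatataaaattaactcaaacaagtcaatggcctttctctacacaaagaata
chr1:48607567-48607766, plus strand: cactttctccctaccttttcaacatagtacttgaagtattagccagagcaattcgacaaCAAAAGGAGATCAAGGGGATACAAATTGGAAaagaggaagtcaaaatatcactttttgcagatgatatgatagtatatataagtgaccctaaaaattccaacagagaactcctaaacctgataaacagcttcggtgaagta
chrX:160299624-160299823, minus strand: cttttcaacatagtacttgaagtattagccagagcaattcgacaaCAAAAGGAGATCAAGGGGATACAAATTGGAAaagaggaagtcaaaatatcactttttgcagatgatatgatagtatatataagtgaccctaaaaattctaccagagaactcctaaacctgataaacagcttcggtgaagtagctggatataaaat

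The first of these reached 140 extended reads in a window and had 279 input reads, 0 Dzip3, 0 Ring1B and 4 ubH2A reads. It lies in an intron of Il1rapl1, a synaptic adhesion gene. The second held 178 input reads with 6 Dzip3, 0 Ring1B and 7 ubH2A reads. The last held 150 input reads with 28 Dzip3, 23 Ring1B and 31 ubH2A reads. All 3 had fewer reads in each ChIP library than in input, and the ChIP counts of the last were above the members' upper quartiles.

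The next sequence is the member with 0 reads in all 3 ChIP libraries that had the most input reads. It has no single base that matters more than the others and is printed in lower case throughout, as are those that follow.
chr3:70478310-70478510, plus strand: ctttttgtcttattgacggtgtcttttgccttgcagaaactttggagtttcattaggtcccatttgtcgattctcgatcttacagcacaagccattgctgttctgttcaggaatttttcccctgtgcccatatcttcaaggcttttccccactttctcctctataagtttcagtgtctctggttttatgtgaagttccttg

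This member of 200 bp had 137 input reads (exact 95% Poisson interval 115 to 162) and also matched the LINE-1 element. Its median 31-base word occurs 11398 times in the genome. Against the limit that a count of 0 allows, 3 reads in a library, the scaled input reads were at least 50.4-fold higher than those of Dzip3, at least 48.9-fold higher than those of Ring1B and at least 63.4-fold higher than those of ubH2A. The nearest ChIP peak, a Ring1B peak, lay 223 bp away, and the peak itself was intergenic, 666775 bp from the closest protein-coding TSS, that of Otol1.

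From the dense windows, the central 300 bases of the longest member are shown, which also had the most input reads of the members in the fullest window.
chr4:146766116-146766415, plus strand: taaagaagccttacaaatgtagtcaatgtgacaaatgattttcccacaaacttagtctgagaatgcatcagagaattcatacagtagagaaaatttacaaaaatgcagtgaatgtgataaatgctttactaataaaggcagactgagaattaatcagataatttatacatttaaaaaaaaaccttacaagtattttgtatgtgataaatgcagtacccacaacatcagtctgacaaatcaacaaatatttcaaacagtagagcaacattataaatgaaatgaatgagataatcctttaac

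This member, chr4:146765097-146767435, was 2338 bp long and overlaps an exon, within the spans of Gm13145, Gm16889 and Gm17317. It held 450 input, 211 Dzip3, 154 Ring1B and 252 ubH2A reads, and its median 31-base word occurs 7 times in the genome. It differed from the LINE-1 members shown above in that all 3 ChIP libraries had many reads there, at 0.425 (Dzip3), 0.319 (Ring1B) and 0.403 (ubH2A) of the scaled input level.

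The last sequence is the member nearest to a ChIP peak, 4 bp from a Ring1B peak on chromosome 16.
chr16:29449302-29449574, plus strand: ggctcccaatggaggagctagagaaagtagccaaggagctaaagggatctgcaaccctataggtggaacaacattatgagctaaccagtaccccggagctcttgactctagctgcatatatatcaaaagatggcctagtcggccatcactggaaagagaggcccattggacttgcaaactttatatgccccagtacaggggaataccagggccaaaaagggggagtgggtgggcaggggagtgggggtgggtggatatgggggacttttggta

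It had 42 input reads, 6 Dzip3, 0 Ring1B and 12 ubH2A reads, lies in an intron of Atp13a4 and matched the LINE-1 element. The next 2 members by this distance were chr8:19684792-19685187 in an intron of Gm6483, 5 bp from a ubH2A peak, and chr4:145154342-145154564 in an intron of Gm13242, 6 bp from a Dzip3 peak. On the other side of the rule, the smallest overlaps above 0 were 0.444% of the length at chrX:121522649-121522874, 0.802% at chr1:85144632-85145131 and 0.885% at chr1:85228979-85229205. These 3 peaks had 28, 75 and 33 input reads. The ratio of scaled Dzip3 to input reads was 0.907, 0.677 and 0.879 in them, and 0.130, 0.534 and 0.539 in the 3 nearest members. These peaks were picked as the closest to the threshold on either side, so nothing is read from their small distances. On the chromosomes with complete lists, the nearest ChIP peak was a median of 19.99 kb from a member.

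The rule depends on the lists as much as on the DNA. A peak entered the input list from 15 extended reads in a window (0.311 RPM), but the Dzip3 list only from 33 (0.619 RPM), the Ring1B list from 31 (0.599 RPM) and the ubH2A list from 32 (0.477 RPM). At an RPM of at least the highest of these minima there were 486 members and 743 other input peaks. Of these 486, 304 were LINE-1 members, 90 lay in the fullest windows and 92 were of neither kind. A row of the input list that runs into a later one hides the peaks of chromosome 1 beyond 85.2 Mb, of chromosomes 10 and 11 and of chromosome 12 up to 99.6 Mb, which were not analysed here. On the 16 chromosomes (autosomes and X) with complete input and ubH2A lists, 4658 of 6339 input peaks were members. Positions and listed percentages gave the same answer for each input peak there. Taken by library, 5556 input peaks lacked a Dzip3 peak, 5623 a Ring1B peak and 5111 a ubH2A peak, and 974 overlapped peaks of all 3.

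The share of members fell with the height of the input peak. It was 88.2% at 15 to 16 extended reads, 76.2% at 20 to 24, 46.5% at 33 to 50 and 4.46% at over 100, where 5 of 112 input peaks were members. The fall was later for peaks that match the LINE-1 element. At 33 to 50 extended reads, 176 of 255 such peaks were members (69.0%, 63.1% to 74.4%), against 107 of 353 that did not match (30.3%, 25.7% to 35.3%). At 51 to 100 the shares were 48.4% (38.6% to 58.3%) and 10.7% (6.94% to 16.1%). In each of the 7 bins of height the share was higher among the peaks that match the element, and in the tallest bin the intervals overlap. The element was picked for its match to members, which favours this difference, so nothing is read from it.

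**Figure D1:**
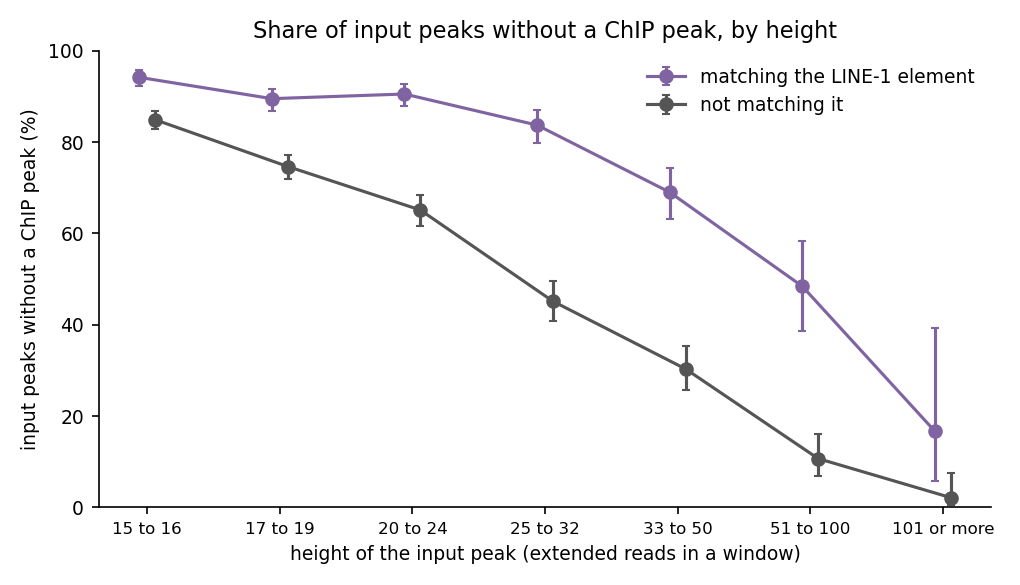
The horizontal axis gives the height of input peaks in extended reads in a window, in 7 bins, and the vertical axis the percent of them without a ChIP peak, for peaks that match the LINE-1 element and those that do not. Bars are 95% Wilson intervals, and both lines fall, from 94.2% to 16.7% and from 84.9% to 2.13%.

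Most members were short and low. Their median length was 237 bp, with a middle range (lower to upper quartile) of 200 to 327 bp, while the other input peaks had a median of 358 bp. A length of exactly 200 bp, the shortest in the list, was found for 1655 members (33.4%, 32.1% to 34.7%) and 137 other input peaks (7.44%). The median height was 18 extended reads in members and 25 in the others. Only the upper end of the members' height was far from the minimum, with an upper quartile of 22 and a highest value of 182. The 3 longest members were the one on chromosome 4 shown above, chrX:123302181-123304155 with 1974 bp and chr4:145027821-145029151 with 1330 bp, the last in an intron of Gm13227 with 224 input, 101 Dzip3, 100 Ring1B and 128 ubH2A reads. The member on chromosome X had 462 input reads, the most of any member, with 39 Dzip3, 27 Ring1B and 72 ubH2A reads.

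Input reads in the members had a median of 37 and a middle range of 32 to 49. Scaled to length, the median was 152 reads per kb, where the genome mean at this library size is 18.9. That mean takes the library size to count the same reads as the lists do. The number of input reads in a member was a median of 2.00 times its height, and 2349 members (47.3%) had between 1.9 and 2.1 times. The lists do not say whether a fragment counts as 1 read or 2, which leaves the scale of the reads per kb uncertain and does not enter the ratios below.

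The ChIP libraries were lower in most members. The medians were 8 Dzip3 reads (middle range 2 to 21), 7 Ring1B reads (2 to 17) and 15 ubH2A reads (6 to 30). In reads per kb they were 30.3, 27.9 and 57.8, where the genome means are 20.8, 20.2 and 26.2. Scaled for library size, the Dzip3 reads had a median ratio to input of 0.191, the Ring1B reads 0.170 and the ubH2A reads 0.270. In the other input peaks the medians were 1.18, 1.14 and 1.30. A lower ratio in members is part of how they were chosen and has no test. Outside the 10 fullest windows the members' medians were 0.118, 0.111 and 0.203, and without the members that match the LINE-1 element 0.375, 0.317 and 0.405.

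Under 0.5 of the scaled input reads were 3874 of 4960 members for Dzip3 (78.1%, 76.9% to 79.2%), where 60.1% of all 6802 input peaks with reads were under this value. For Ring1B they were 4063 (81.9%), against 63.4% of all input peaks, and for ubH2A 3705 (74.7%), against 56.0%. The members make up most of these totals and the rule used the same libraries, so nothing is read from the excess. Among the 1842 other input peaks, 212 (11.5%), 247 (13.4%) and 107 (5.81%) were under 0.5. Under 0.5 in all 3 libraries were 3268 members (65.9%, 64.6% to 67.2%), beside 49.0% of all input peaks and 63 of the 1842 others (3.42%). A further 674 members were under 0.5 in 2 libraries, 490 in 1 and 528 (10.6%) in 0. The 3 ratios of a peak share their input reads, so they are not independent. Scaled ChIP reads at or above the input level, without a called peak, were found in at least 1 library at 343 members (6.92%) and in all 3 at 22. The other input peaks had median ratios of 1.18 (Dzip3), 1.14 (Ring1B) and 1.30 (ubH2A). Shares over all input peaks are not given for these counts or for the split into 2, 1 and 0 libraries. Nothing is read from either.

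The 3 kinds of members differed in their ChIP reads. LINE-1 members had a median of 39 input, 2 Dzip3, 2 Ring1B and 8 ubH2A reads. Their ratios to input had medians of 0.0567 for Dzip3, 0.0533 for Ring1B and 0.139 for ubH2A. Members of the fullest windows had a median of 40 input, 21 Dzip3, 17 Ring1B and 27 ubH2A reads, with ratios of 0.429, 0.355 and 0.448. The other members lay between these, with 35 input, 13 Dzip3, 11 Ring1B and 19 ubH2A reads and ratios of 0.320, 0.278 and 0.360. Input reads were thus much alike across the kinds, which the minimum height of the input list favours. Dzip3 and Ring1B reads in LINE-1 members were near 0. In reads per kb the LINE-1 members had medians of 10 for Dzip3, 10 for Ring1B and 30.4 for ubH2A, of which the first and second lie below the genome means given above. Ratios under 0.5 were found for 94.5% of LINE-1 members, 59.0% of members of the fullest windows and 68.3% of the other members for Dzip3, beside 60.1% of all input peaks. The 3 shares were 95.3%, 67.4% and 73.1% for Ring1B and 89.5%, 57.3% and 66.1% for ubH2A.

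**Figure D2:**
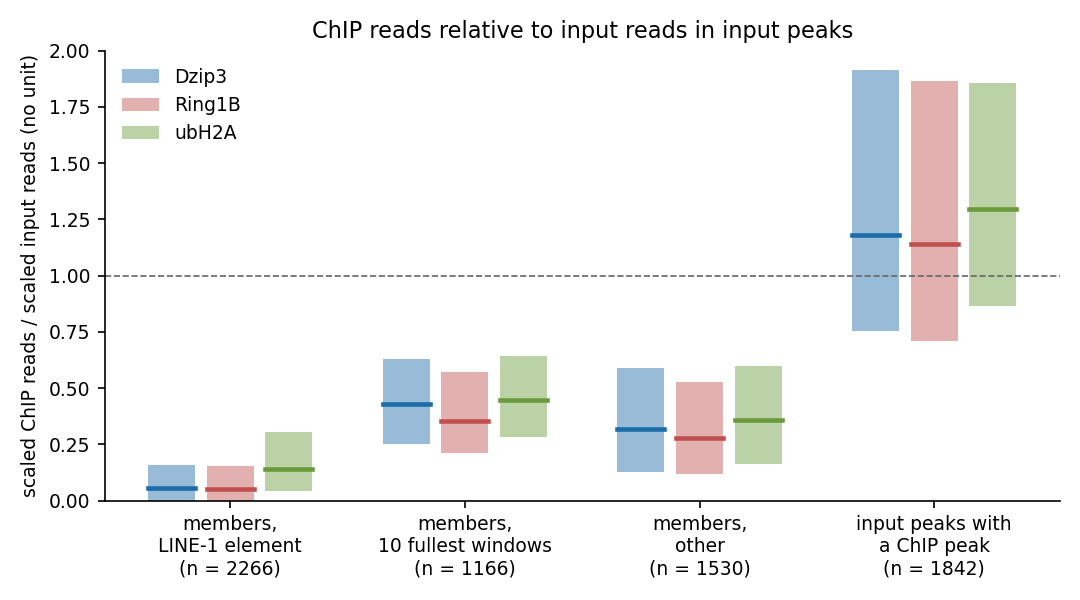
The vertical axis gives scaled ChIP reads over scaled input reads in a peak (no unit, 1 library each), for the 3 kinds of members and for the input peaks with a ChIP peak. Boxes run from the lower to the upper quartile over peaks, thick lines are medians and the dashed line marks equal levels. The upper quartiles of LINE-1 members are 0.160, 0.152 and 0.306, below the medians of the members of the fullest windows, and the input peaks with a ChIP peak have medians above 1.

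A complete absence of ChIP reads was found mostly in LINE-1 members. Of all members, 737 had 0 Dzip3 reads (14.9%), 780 had 0 Ring1B reads (15.7%) and 302 had 0 ubH2A reads (6.09%), each count with the 2 members that have 0 listed reads in all 4 libraries. LINE-1 members made up 622, 659 and 258 of these. Beside those 2, input reads without a single ChIP read were listed for 115 members, 104 of them LINE-1 members. The members with the most input reads among these were chr3:70478310-70478510, shown above, chr2:12569265-12569465 with 86 input reads and chr15:59895249-59895489 with 82. All 3 matched the LINE-1 element and were intergenic. Among the other input peaks, 3 had 0 Dzip3 reads and 1 had 0 Ring1B reads.

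The tallest members included 3 in LINE-1 sequence. Besides chrX:85088107-85088307, these were chr3:55409193-55409425, intergenic and 143513 bp from the TSS of Dclk1, a kinase that binds microtubules, and chr2:21234051-21234251, intergenic and 54918 bp from the TSS of Gpr158, a gene of a G protein-coupled receptor. The one on chromosome 3 held 266 input reads (235 to 300) with 4 Dzip3, 0 Ring1B and 22 ubH2A reads. The one on chromosome 2 held 229 (200 to 261) with 0, 0 and 3. The 5th tallest, chrX:121265627-121266163, was not in LINE-1 sequence. It lay in a fullest window, its median word occurs 1 time in the genome, and it held 231 input, 27 Dzip3, 19 Ring1B and 34 ubH2A reads. In all 4 the ChIP libraries were lower than input, by a factor of at least 95.03 for Ring1B on chromosome 3, where 3 reads are taken for the count of 0, and with ratios of 0.0767 to 0.106 at the last.

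The tallest member of all has no sequence to read. It lies at chrY:2827991-2828306, with a height of 182 extended reads and 0 listed reads in each of the 4 libraries, and all of its bases are unknown (N) in the mm9 assembly. A second member of this kind is chr8:19843997-19844320, with a height of 22. Both were left out of the ratios, which leaves 4960 members. A further 10 members had fewer input reads than their height, 9 of them in the fullest windows. The member with the highest Ring1B and ubH2A ratios was among these, chr4:145576638-145576954, with 5 input, 11 Dzip3, 41 Ring1B and 47 ubH2A reads at a height of 17, so that its ratios rest on 5 input reads.

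Copies in the genome were counted for every 31-base word of a peak, on both strands. In 2386 members (48.1%, 46.7% to 49.5%) the median word occurred over 1000 times, and in 596 (12.01%, 11.1% to 12.9%) it occurred 1 time. In the other input peaks these shares were 19.5% and 14.98%, and in the evenly spaced tiles 3.69% and 84.8%. Of all words in the members, 84.5% occurred more than 1 time in the genome, against 77.6% in the other input peaks and 17.1% in the tiles. The rule did not use the sequence, but the number of copies decides where a read can be placed, and how reads with several places were treated in the listed counts is not given in the sources used here. The study's methods give the depth in uniquely mapped reads, lower than the library sizes derived here, and an alignment that tolerated a mismatch, which does not settle it. The part of this in the ChIP reads was not tested. Members whose median word occurs 1 time had ratios of 0.311 (Dzip3), 0.264 (Ring1B) and 0.309 (ubH2A), and those with over 1000 copies 0.0567, 0.0518 and 0.139. The median GC content was 38.5% in members, 43.4% in the other input peaks and 41.4% in the tiles.

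The LINE-1 match was made to a single copy, at chr13:77702543-77710502 on the minus strand of mm9, 7960 bp with the flanks. It was the locus that shared words with the most members among 697 loci that carry a pair of long reading frames. Its frames have 357 and 1281 codons and lie 40 bases apart. No repeat annotation was used, and the name LINE-1 rests on this layout. A peak was taken to match with at least 20 shared 31-base words. This held for 2296 members (46.3%, 44.9% to 47.7%), of which 30 lie in the fullest windows, for 368 other input peaks (19.98%, 18.2% to 21.9%) and for 178 tiles (4.44%). Among the ChIP peaks, 14.8% of the Dzip3 list, 9.07% of the Ring1B list and 14.4% of the ubH2A list matched. The 368 other input peaks that match had median ratios of 1.12 for Dzip3, 1.08 for Ring1B and 1.45 for ubH2A. They were chosen for having a ChIP peak.

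Along the element, 1690 of the 2296 members (73.6%) lay in the second reading frame, 260 in the first, 210 upstream and 128 downstream. Per kb these are 439, 242, 105 and 128 members. The upstream and downstream parts were cut at fixed lengths of 2000 and 1000 bp. From 5600 bp on, the downstream words have a median of 1 copy in the genome, which lowers the downstream value per kb. The words of the second frame are also the most common, with a median of 8774 copies, against 3628 in the first frame and 2401 upstream. The fullest bin of 100 bp, 4000 to 4100 bp from the start of the first frame, held 91 members. Of 80 bins, 13 held 0, among them those from -1000 to -500 bp and those from 5500 bp to the downstream end. Bins with similar copy numbers differed widely. The bin from -1900 to -1800 bp held 28 members at a median of 2009 copies (13.9 per 1000 copies), and that from -1000 to -900 bp held 0 at 1825 copies. The 10 fullest bins held 687 members (29.9%).

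**Figure D3:**
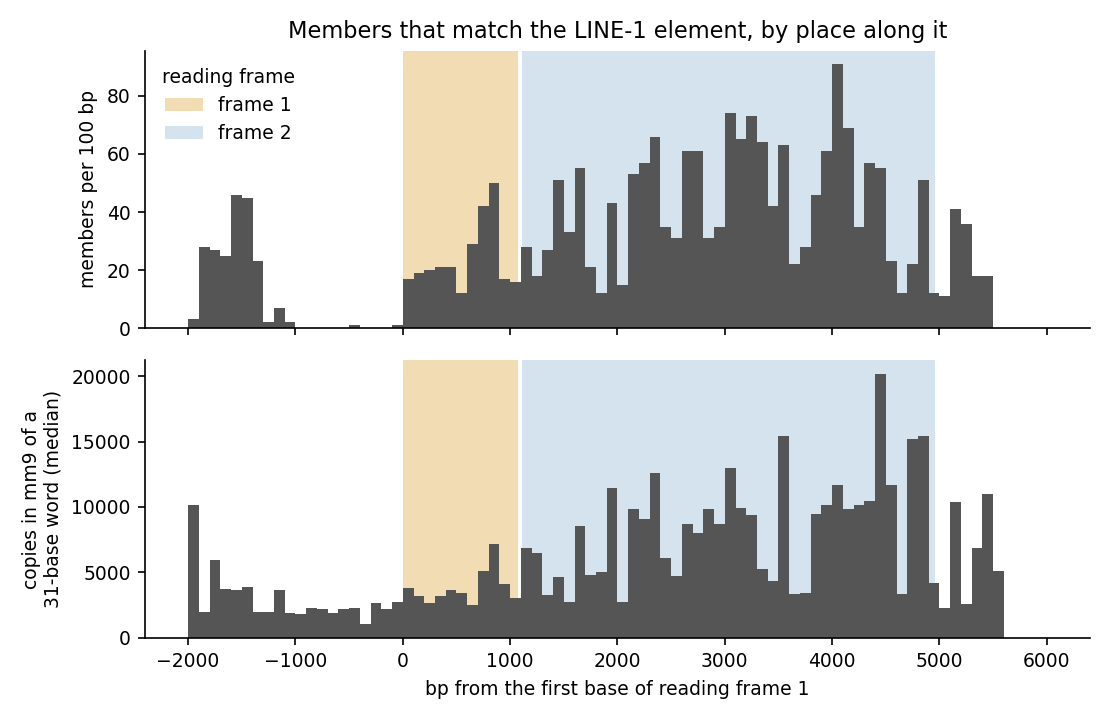
Both panels share the distance in bp from the first base of reading frame 1 of the LINE-1 element, with the frames shaded. The upper one counts members whose matching words centre in each bin of 100 bp, and the lower one gives the median number of copies in mm9 of the 31-base words that start there. Members are most frequent in frame 2, with 91 in the fullest bin, and nearly absent in the 1000 bp before frame 1.

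Some of the members clustered in a few places. All members together lay in 1400 of the 2203 windows of 1 Mb that are not wholly hidden in the input list, and 520 of these held 1 member. The 10 fullest windows held 1166 members (23.5%, 22.3% to 24.7%). These windows also held 459 of the other input peaks (24.9%), so they are places of many input peaks, with and without a ChIP peak. The median gap between neighbouring members was 76022 bp and depended on which members were counted. It was 6376 bp without the members that match the LINE-1 element, 152182 bp with members under 1 kb apart counted as 1, 217726 bp outside the 10 fullest windows and 314878 bp at a height of at least 20 extended reads. Of 4942 gaps, 685 (13.9%) were under 1 kb, 1792 (36.3%) under 10 kb and 637 (12.9%) over 1 Mb. The distance to the nearest neighbour had a median of 134 kb for LINE-1 members and 0.767 kb for members of the fullest windows, which the choice of windows favours.

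The fullest window, from 146 to 147 Mb of chromosome 4, held 241 members among 308 input peaks. The next, from 145 to 146 Mb, held 210 of 275. Members there had median nearest distances of 594 and 622 bp, 154 and 157 input reads per kb, and a median word found 4 times in the genome in each. From 120 to 123 Mb of chromosome X, 3 windows held 119, 142 and 99 members of 220, 218 and 131 input peaks. The share of members was lowest among the 10 in the first of these, at 54.1% (47.5% to 60.5%). The median word there was found 15 to 17 times. The member with the most input reads in the window at 120 Mb, chrX:120767102-120767487, had 163 input, 31 Dzip3, 18 Ring1B and 47 ubH2A reads, and that at 122 Mb, chrX:122699100-122699669, had 186, 70, 36 and 63. On chromosome 14, the windows at 4, 6 and 7 Mb held 90, 49 and 84 members, with the highest median Dzip3 ratios of the 10, at 0.540, 0.507 and 0.579, and with 22 to 26 protein-coding genes each. On chromosome 13, the windows at 12 and 66 Mb held 82 of 90 and 50 of 54 input peaks as members, the highest shares, at 91.1% (83.4% to 95.4%) and 92.6% (82.4% to 97.1%). Of the 1166 members of these windows, 30 matched the LINE-1 element. Their GC content had a median of 37.9%.

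**Figure D4:**
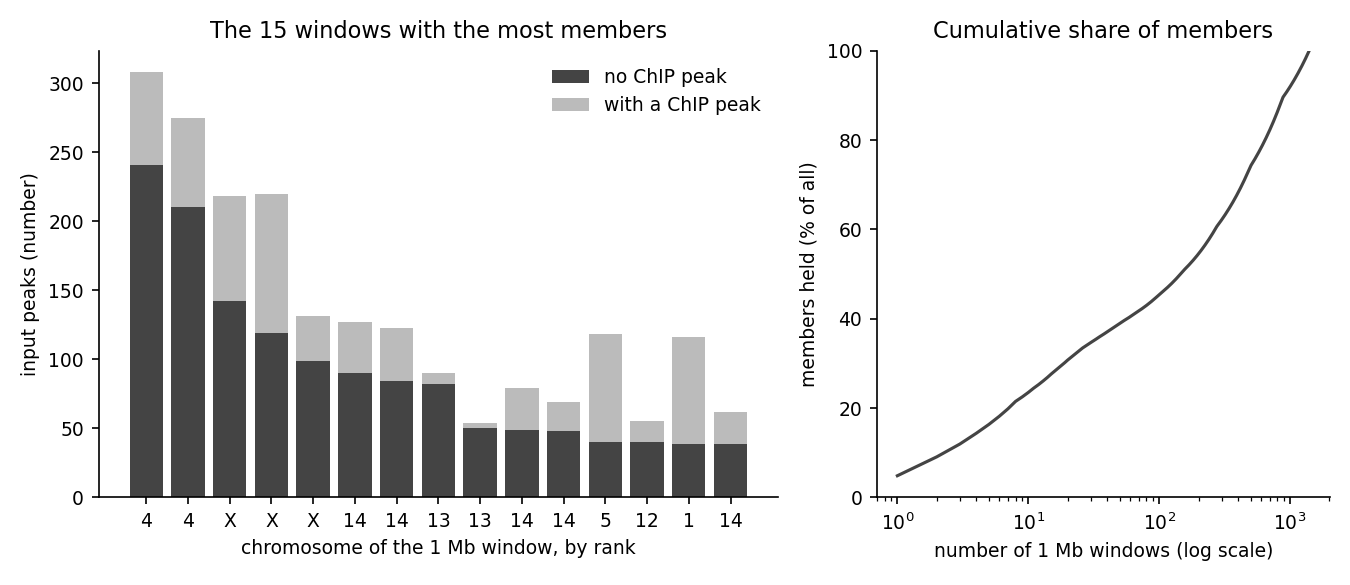
Left, the number of input peaks without (dark) and with (light) a ChIP peak in the 15 windows of 1 Mb with the most members, named by chromosome in order of rank. Right, the percent of the 4962 members held by a growing number of windows, on a log scale, which is 23.5% at 10 windows.

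In windows crowded with ChIP peaks, which were picked as such, the share of members was below that of all input peaks. The rule lowers this share where ChIP peaks are dense, so nothing is read from it. From 19 to 20 Mb of chromosome 8, 29 of 136 input peaks were members (21.3%), and from 47 to 48 Mb of chromosome 6, 2 of 41 (4.88%). The windows at 14 and 15 Mb of chromosome 5 had 34 of 75 and 40 of 118. From 85 Mb of chromosome 1 to where the list breaks off, 39 of 116 were members. The windows at 15 Mb of chromosome 5 and 85 Mb of chromosome 1 also ranked 12 and 14 by number of members.

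Across the 16 chromosomes with complete lists, members made up 54.2% (chromosome 8) to 84.1% (chromosome 13) of the input peaks. The most members were on X with 774, chromosome 4 with 718 and chromosome 14 with 507. Per Mb of sequenced bases these chromosomes had 4.78, 4.73 and 4.17 members, where the median chromosome had 1.89. Outside the 10 fullest windows the range was 0.929 on chromosome 19 to 2.55 on X. It is narrower by the choice of these windows, which were picked for holding the most members. Members that match the LINE-1 element ranged from 0.516 per Mb on chromosome 19 to 1.86 on X. Chromosome Y, of which mm9 holds 2.70 Mb of sequence, had 27 members among 55 input peaks, or 9.99 per Mb. The mitochondrial chromosome had 2 input peaks, both members, at 13418 to 13618 with 31 input, 16 Dzip3, 19 Ring1B and 28 ubH2A reads, and at 16093 to 16293 with 29, 23, 11 and 18.

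**Figure D5:**
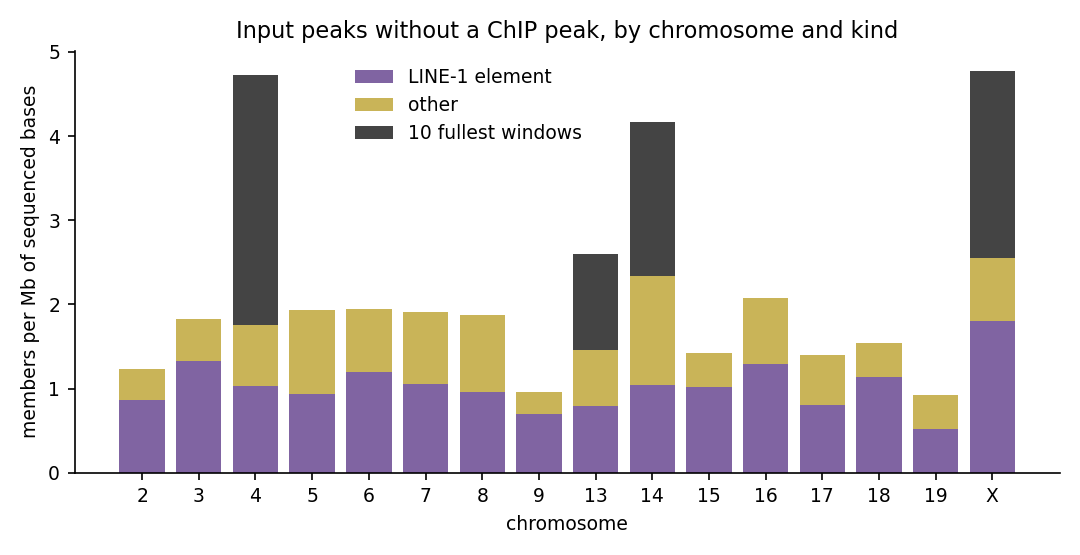
Members per Mb of sequenced bases on the 16 chromosomes with complete lists, stacked by kind. Chromosomes 4, 13, 14 and X carry the 10 fullest windows and X the most LINE-1 members, while chromosome 19 has the fewest at 0.929 per Mb.

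Members overlapped a protein-coding gene less often than the evenly spaced tiles did, in 1315 cases (26.5%, 25.3% to 27.7%), compared with 27.6% of the other input peaks and 38.6% of the tiles. Within 4 kb of a TSS of such a gene were 325 members (6.55%, 5.89% to 7.27%), 10.4% of the other input peaks and 10.5% of the tiles. The median distance to the nearest such TSS was nearly the same in members and tiles, at 47.5 and 48.3 kb, and 32.9 kb in the other input peaks. LINE-1 members were the farthest, with a median of 112 kb and 1.63% within 4 kb, and members of the fullest windows the nearest, with 24.5 kb and 13.0%. On the chromosomes with complete lists, the nearest ChIP peak was a median of 19.99 kb away. It was under 1 kb from 725 of 4658 members (15.6%) and over 100 kb from 1490 (32.0%).

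On the chromosomes with a complete input list, 729 of 29600 annotated genes held at least 1 member in their span, and so did 609 of 17740 protein-coding genes, of which 409 held 1. The 20 genes with the most members were on chromosomes 4 and 14, except C130026I21Rik on chromosome 1 with 41 members among 120 input peaks. The span of C130026I21Rik runs past 85.2 Mb, where the list breaks off, so both counts cover only its listed part. Most of the 20 carry provisional names without a known product. Gm16889 (chr4:146392344-146866310, minus strand) and Gm17317 (chr4:146510387-146831128, plus strand), both lincRNA genes, held 135 and 105 members. Their spans overlap, so that they share members, and peaks have no strand. Gm13242, a protein-coding gene at chr4:145104787-145294344, held 68 members among 94 input peaks, and its median ratios were 0.409 for Dzip3, 0.352 for Ring1B and 0.423 for ubH2A. Gm10406 on chromosome 14, with 48 members of 78 input peaks, was less low, at 0.645, 0.470 and 0.629. Per length, Gm13145 had 57.2, Gm13147 56.4 and Gm13227 55.7 members per 100 kb, the most among the 20. The others on chromosome 4 were Gm17452 with 46 members, Gm17609 with 38, Zfp600 with 17 and Gm13165 with 15. On chromosome 14 they were Gm3739 with 38, Gm2974 with 30, Gm3629 with 23, Gm5796 with 22, Gm8108 with 21, Gm3264 and Gm3667 with 19 each and Gm3696 with 17. Several of these spans overlap as well. The lowest median Dzip3 ratio among the 20 was 0.309 at Gm13147, and the highest was 0.769 at Gm3667.

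Gene families and gene groups, with Mid1 as a single gene among them, were counted by symbol from a fixed list, on chromosomes with a complete input list. Over all annotated genes there, 729 of 29600 held a member, a share close to that of the zinc finger genes. Gene length was not taken into account, and nothing is read from the family counts. Among zinc finger genes (Zfp and Znf, DNA-binding proteins), 8 of 344 held 27 members, of which 17 lay in Zfp600 in the fullest window and 4 in Zfp534 close to it, and Zfpm2, Zfp97, Zfp353, Zfp640, Zfp804b and Zfp960 held 1 each. Of the Vmn2r pheromone receptors, 13 of 172 held 17 members, with a median Dzip3 ratio of 0.170 over these. Vmn2r49 held 3, Vmn2r44, Vmn2r57 and the pseudogene Vmn2r-ps11 held 2 each, and Vmn2r7, Vmn2r13, Vmn2r39, Vmn2r41, Vmn2r42, Vmn2r91, Vmn2r94, Vmn2r111 and Vmn2r-ps36 held 1 each, with 1 member shared by Vmn2r7 and Vmn2r-ps11. Speer genes, a rodent family expressed in testis, had 3 of 11 with members, which were 9 in Speer7-ps1, 3 in Speer4e and 2 in Speer4a. Slx, an X-linked testis gene, held 4 members, of which 3 matched the LINE-1 element. Skint11 held 2 and Skint5 1, Mup2 and Mup-ps3 (major urinary proteins) 1 each, and Ssxb6 2. Mid1, an X-linked ubiquitin ligase gene that binds microtubules, held 11 members among 30 input peaks, with a median Dzip3 ratio of 0.824. Among olfactory receptor genes (Olfr), 0 of 1051 held a member, which allows a share of up to 0.285%, and 0 of 256 Vmn1r genes, which allows 1.17%. Defa and Defb (0 of 68, up to 4.41%), Rhox (0 of 33, up to 9.09%), histone (0 of 67, up to 4.48%) and rRNA genes (0 of 247, up to 1.21%) had 0 as well, as did Ott. Sfi1 lies where the list is hidden, and Erdr1 had 0 entries in the annotation.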

How the data were processed

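Peaks had been called by the authors on each library by itself with the Partek Genomics Suite, after alignment to mm9 with the Illumina Analysis Pipeline. The deposited lists hold counts (extended reads in a window, and the reads of all 4 libraries inside the peak), RPM, the percent of the peak covered by the peaks of each library, and the caller's p-values and scaled fold against input. The p-values and fold values of the authors' comparison were not used here. Rows with other than 18 fields were left out, 1 each from the input and ubH2A lists. The members, lists and windows were chosen with earlier results of these data known.

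Library sizes were taken as height over RPM, and a ratio is ChIP reads per library size over input reads per library size. Shares have 95% Wilson intervals and read counts exact Poisson intervals. Genes are from the GENCODE annotation of NCBIM37 (mm9), and bases from the same build. The 20 genes with the most members and every gene of the listed families with a member are named, as are the 5 tallest, the 3 longest and the 3 nearest members, the 3 with the most input reads among those without ChIP reads, the one with the most input reads in each of the 5 fullest windows, and the 3 other input peaks of smallest overlap. Counting of words and distances was tested on simulated data. Alternatives covered a height of at least 20, complete chromosomes, merged members, exclusion of the fullest windows or of a ChIP peak within 1 kb, other windows, unscaled or summed reads, 50-base words and all gene types. Calculations used Python 3.11.15 with pysam 0.24.0, numpy 2.4.6, scipy 1.17.1, pandas 2.3.3, matplotlib 3.10.9 and numba 0.67.0.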

Additional observations from a re-analysis of the deposited data

How the results depend on the processing

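Of 79 recalculated values, 23 stayed within the 95% interval of the reported value and 56 moved outside it, and the cause was not tested beyond what each alternative changes by itself. With at least 20 extended reads, 1901 of 3190 input peaks were members (59.6%), with a gap of 314878 bp, a length of 317 bp, 172 input reads per kb, ratios of 0.151, 0.137 and 0.245 (in the order Dzip3, Ring1B, ubH2A throughout), 38.1% GC, 86.4% repeated words, 23.9% in a protein-coding gene and 5.16% within 4 kb of a TSS. On chromosomes with complete lists the 10 fullest windows held 25.03% and repeated words were 85.1%. With members under 1 kb apart counted as 1, which left 4277, the windows held 17.5%, the gap was 152182 bp, the length 244 bp and the ratios 0.161, 0.147 and 0.248. Outside the 10 fullest windows the 3796 members had a gap of 217726 bp, a length of 225 bp, ratios of 0.118, 0.111 and 0.203, 38.7% GC, 85.6% repeated words, 24.5% in a gene and 4.56% near a TSS. With no ChIP peak within 1 kb, on complete chromosomes, 3933 peaks (62.04%) remained, with 20.7% in the windows, a gap of 147561 bp, a length of 230 bp, ratios of 0.151, 0.133 and 0.232 and 86.6% repeated words. Windows of 100 kb held 7.70%. Unscaled ratios were 0.211, 0.182 and 0.375, and summed reads gave 0.281, 0.251 and 0.327. Words of 50 bases were repeated in 77.7%. With genes of every biotype, 32.1% of members lay in a gene and 13.4% near a TSS.

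Leaving out the members that match the LINE-1 element was chosen after seeing the data. The 2666 that were left had 42.6% in the 10 fullest windows, a gap of 6376 bp, a length of 248 bp, 150 input reads per kb, ratios of 0.375, 0.317 and 0.405, 74.0% repeated words, 30.4% in a gene and 10.8% near a TSS. The Dzip3 and Ring1B ratios therefore changed by over 1.5 times with this choice and also outside the fullest windows. Each of the 3 ratios stayed under 0.5 in all of the alternatives run. No alternative relaxed the rule, which by itself favours low ratios, so nothing is read from this.

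No paired analysis was possible because each target has 1 library. The height from which peaks were called differs between the lists, and with 15 extended reads for input a ChIP signal of the same height was not detectable as a peak. The study's methods give the depth in uniquely mapped reads, but how the listed counts treat reads from near-identical copies is not given in the sources used here, and the position of a member in LINE-1 sequence is uncertain.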
